A study of Homo sapiens with 32 samples.

Results

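A-kinase anchoring proteins (AKAPs) are scaffolds that bind protein kinase A (PKA), and 14 genes named AKAP were targeted in a pooled CRISPR-knockout screen for regulators of PKA activity. The genes are AKAP1, AKAP3 to AKAP8, AKAP8L and AKAP9 to AKAP14, taken by their symbols, by a rule that uses no measured value but was set with earlier results of these data known. AKAP17A, a further gene with this name, was counted among the other anchoring proteins below. Each had 4 single guide RNAs (sgRNAs), so that 56 of the 74987 sgRNAs of the count table and 14 of its 18638 genes are described here.

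PKA is a tetramer of regulatory and catalytic subunits, and cAMP releases the activity of the catalytic subunits. An AKAP holds the docking domain of the regulatory subunits through a short amphipathic helix and carries a targeting sequence of its own, which places PKA at a mitochondrion, a membrane, the centrosome or another site beside its substrates. Many AKAPs also hold phosphodiesterases, phosphatases or other kinases, and several are expressed in few tissues such as testis, heart or brain.

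RKO, a colon carcinoma line, carried Cas9 and Kinprola_PKA, both introduced by lentivirus and selected as a population of EGFP-positive cells. Kinprola_PKA is a split-HaloTag recorder that binds the fluorescent substrate CPY-CA irreversibly while PKA phosphorylates it, and EGFP reports how much of it a cell holds. The paper lists the recorder of the RKO line with a nuclear export signal, for the cytosol. PKA activity inside the nucleus or at single organelles was not measured separately. The cells were transduced with the HD CRISPR sublibrary A, labeled for 30 min on day 6 and sorted on their CPY-CA/EGFP ratio, the upper 25% or so as high, the lower 25% as low and the 50% between them as medium, which the labels name basal. The screen was run 2 times, as replicates 2 and 3, and gave 1 library for each population and 1 for day 0 (T0) in each run, so that n = 2 throughout. All groups carried the recorder, Cas9 and the library, and the sorted groups differed in the sorting gate. T0 differed from them in the day, and its labels name no gate or CPY-CA/EGFP ratio.

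The 8 libraries held 23369720 to 31777138 reads, with medians of 260 to 356 reads per sgRNA. Between lanes of 1 library the chi-square per degree of freedom was 1.019 to 1.03, near sampling noise, and between the screens it was 5.762 to 7.34. In both screens, the description of lane 4 of medium names high, whereas its title names the basal population, and the title was followed. Mean reads of the 56 sgRNAs over the libraries ranged from 0.5 to 1240.5 with a median of 293.4, beside 308.8 for all sgRNAs. The exception at the low end was sgRNA 1 against AKAP3, which had 0 reads in 6 libraries and at most 3 in the others. Only 3 sgRNAs against AKAP3 were thus well measured. The gene test had no filter on reads, so sgRNA 1 still entered the means of AKAP3.

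Reads below are scaled to the mean library total and summed over the 4 sgRNAs of a gene, with screen 2 before screen 3. The log2 fold change of a gene is the mean over its sgRNAs, taken within each screen with a pseudocount of 1 read. It was tested with limma on the values of the 2 screens. Its standard errors, intervals and p-values combine the spread of a gene between the screens with a spread pooled over all genes. The pooled part had 10.2 prior degrees of freedom in high versus low and outweighed the 2 values of a gene. A gene with almost equal screens therefore does not have a small error. A positive value in high versus low means that a knockout was enriched among the strongly labeled cells. Gene positions are those of GENCODE release 44 on GRCh38. The sgRNAs are numbered as in the library, and where each cuts was not analysed here.

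None of the 14 AKAP genes passed an FDR of 0.05 in high versus low, in a comparison that called 7.98% of all genes, and none had an unadjusted limma p under 0.05, which 17.6% of all genes had. Their log2 fold changes lay between −0.15 for AKAP14 and 0.19 for AKAP9, with 7 above 0 and 7 below. The median was 0.01, beside −0.01 over all genes. The smallest unadjusted p was 0.119 and the smallest adjusted p 0.445. Standard errors set 95% intervals of 0.24 to 0.30 on either side of a value, and all 14 intervals lay between −0.43 and 0.43. With reads scaled to library totals, a change of more than 1.35-fold in the ratio of high to low therefore fell outside the interval of every AKAP gene. Smaller changes could lie within the intervals. For comparison, the smallest change that was called among all genes was 0.39 on the log2 scale. Centred on the sgRNAs without a target, AKAP9 was at 0.27 and the median of the 14 at 0.09, so the bound depends on the scaling. With that centring, 1 of the 14 had an unadjusted limma p under 0.05. With the median over the sgRNAs of a gene, 1 did too. The share of all genes under that p was not counted for these settings, so these counts have no background beside them.

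Direction was the same in both screens for 6 of the 14 genes, beside 61.5% of all genes. The scaled reads of high and low did not overlap for 9 of the 14, beside 47.9% of all genes. High lay above low for AKAP8, AKAP8L, AKAP9 and AKAP13, and below it for AKAP3, AKAP5, AKAP7, AKAP12 and AKAP14. With 2 libraries a population, such a separation is common in this table.

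Mitochondrial anchoring is the known role of AKAP1 (chr17:57085092-57121346), which sits in the outer membrane. Its scaled reads were 1621 and 1761 in high, 1711 and 1664 in medium, and 1657 and 1483 in low. The populations overlapped, and the log2 fold change of high versus low was 0.13 ± 0.12 (SE, n = 2), with −0.04 in screen 2 and 0.30 in screen 3. AKAP10 (chr17:19904302-19978343) binds both types of regulatory subunit and is found at mitochondria and endosomes. It gave 1292 and 1404 reads in high, 1456 and 1297 in medium, and 1336 and 1428 in low. These values overlapped too, and AKAP10 lay nearest to 0 of the 14, at −0.0044 with a 95% interval of −0.24 to 0.23.

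The plasma membrane is the main site of 3 members. AKAP5 (chr14:64465499-64474503) holds PKA beside protein kinase C and calcineurin. Reads of AKAP5 were 853 and 857 in high, 992 and 962 in medium, and 941 and 1009 in low. High was the lowest of the populations in both screens, but the mean log2 fold changes over sgRNAs were 0.02 and −0.26, for a mean of −0.12 ± 0.12. AKAP7 (chr6:131135467-131283535) is a small anchoring protein known from ion channels of the heart and kidney. It had 1086 and 1019 reads in high, 1243 and 1055 in medium, and 1131 and 1166 in low, and a log2 fold change of −0.09 with an interval of −0.34 to 0.16.

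AKAP12 (chr6:151239967-151358559), also called gravin, is a large scaffold that binds β-adrenergic receptors. Its scaled reads were 1907 and 1842 in high, 1503 and 1781 in medium, and 2036 and 1960 in low. Medium was the lowest in both screens, and low was the highest. In high versus low AKAP12 was at −0.13 ± 0.11, with almost equal values of −0.14 and −0.13 in the screens and an adjusted p of 0.624.

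In the nucleus, AKAP8 and its paralog AKAP8L are found at chromatin and the nuclear matrix. The 2 genes lie next to each other on chromosome 19 (chr19:15353385-15379815 and chr19:15380050-15419141). AKAP8L was included by its symbol, and whether it anchors PKA was not examined here. Reads of AKAP8 were 2290 and 2403 in high, 2262 and 2311 in medium, and 2092 and 2252 in low. AKAP8L gave 2515 and 2271 in high, 2223 and 2181 in medium, and 2166 and 2048 in low. Both genes thus followed the order high, medium, low in each screen, by small steps. Their log2 fold changes were 0.13 (interval −0.10 to 0.37) and 0.10 (−0.14 to 0.34). AKAP6 (chr14:32329298-32837684) anchors PKA at the nuclear envelope of muscle cells. It had 1282 and 1035 reads in high, 1203 and 1252 in medium, and 1141 and 1248 in low, and the 2 screens disagreed, at 0.17 and −0.25.

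At the Golgi and the centrosome, AKAP9 (chr7:91940840-92110673) holds PKA on a very large coiled-coil scaffold that also nucleates microtubules. Its scaled reads were 2023 and 1965 in high, 1711 and 1776 in medium, and 1714 and 1817 in low. Both high libraries exceeded all medium and low libraries. The log2 fold change was 0.19 ± 0.11 (SE, n = 2), with 0.26 and 0.11 in the screens and a 95% interval of −0.06 to 0.43. It was the largest of the 14 in size and did not pass the test (limma, adjusted p = 0.445).

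AKAP13 (chr15:85380571-85749358) combines PKA anchoring with an exchange factor domain for RhoA. Its reads were 1785 and 1718 in high, 1728 and 1616 in medium, and 1601 and 1683 in low, with a log2 fold change of 0.10 and an interval of −0.14 to 0.34. AKAP11 (chr13:42272152-42323261) binds GSK3 and protein phosphatase 1 as well as PKA. It gave 1774 and 1702 reads in high, 1577 and 1803 in medium, and 1828 and 1629 in low. The screens had opposite signs for AKAP11, at −0.11 and 0.15.

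The remaining members are known mainly from sperm and cilia. AKAP4 (chrX:50190777-50201007) and AKAP3 (chr12:4615508-4649051) are parts of the fibrous sheath of the sperm tail. Reads of AKAP4 were 761 and 826 in high, 656 and 825 in medium, and 713 and 807 in low, which overlapped, and its log2 fold change was 0.03 (interval −0.21 to 0.26). AKAP3 had 696 and 664 in high, 745 and 724 in medium, and 708 and 852 in low. Its values of 0.20 and −0.38 differed in sign between the screens. In screen 3 the sgRNA that was nearly absent entered the mean with −1.07, from 0 reads in high and 1.1 scaled reads in low, and without it AKAP3 changed sign to 0.06 (only sgRNAs with a mean of at least 50 reads).

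AKAP14 (chrX:119895837-119920716) is known from the axoneme of cilia and from testis. Its reads were 1073 and 1165 in high, 1201 and 1157 in medium, and 1283 and 1244 in low. Low was the highest population in both screens by summed reads. The mean over sgRNAs was nonetheless −0.39 in screen 2 and 0.09 in screen 3, which gave −0.15 ± 0.13, the lowest of the 14 (adjusted p = 0.644), and leaving out 1 library moved it between −0.29 and −0.01.

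Single sgRNAs of a gene share a target and are not replicates of a condition, but they show how far the values of a gene come from all of its sgRNAs. As means of the 2 screens, all 4 sgRNAs were positive in high versus low for AKAP9 (0.14 to 0.22) and AKAP8 (0.01 to 0.26). All 4 means were negative for AKAP12 (−0.22 to −0.01) and AKAP14 (−0.25 to −0.04). The screens had the same sign for 3 of the 4 sgRNAs of AKAP9 and AKAP14. For AKAP8 and AKAP12 they did so for 2 of 4. For example, sgRNA 1 against AKAP14 was at −0.98 in screen 2 and 0.89 in screen 3. How often all sgRNAs of a gene share a sign over all genes was not counted. The SD over sgRNAs was lowest for AKAP9, at 0.034, and highest for AKAP3, at 0.696 over the 3 tested.

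Over the 55 sgRNAs with enough reads for edgeR, the SD of the log2 fold change was 0.23. It was 0.31 for the 278 sgRNAs without a target in the genome and 0.42 for all sgRNAs against genes. The 278 were not filtered by reads (275 had enough for edgeR) and ranged from −2.43 to 2.06, so these SDs are not on equal terms. The 5th and 95th percentiles were −0.26 and 0.40 for the 55, and −0.47 and 0.26 for the 278. The median of the 55 was 0.01, whereas the median of the sgRNAs without a target was −0.11. The sign was the same in both screens for 30 of the 55, beside 56.7% of all sgRNAs against genes. Across these 55 sgRNAs, which share libraries and fall on 14 genes, the screens correlated with a Pearson's r of −0.04 and a Spearman's rho of 0.07. Over all sgRNAs against genes the values were 0.45 (Pearson's r) and 0.23 (Spearman's rho). These correlations are across sgRNAs and are given as a description.

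By the edgeR quasi-likelihood test, 1 of the 55 sgRNAs passed an adjusted p of 0.05 in high versus low, beside 4.5% of all sgRNAs against genes, and 4 had an unadjusted p under 0.05, beside 12.9%. The sgRNA that passed was sgRNA 3 against AKAP8L. It had 1182.8 and 1034.6 scaled reads in high, 966.4 and 938.7 in medium, and 794.5 and 792.4 in low, beside 1004.9 and 863.6 at T0. The populations were in the order high, medium, low in both screens and did not overlap. Its log2 fold change was 0.48 (edgeR, adjusted p = 0.00157), with 0.57 and 0.38 in the screens. The call was lost without high of screen 2 (0.39, adjusted p = 0.247) and without low of screen 2 (0.42, adjusted p = 0.19). The other sgRNAs against AKAP8L had 0.01, 0.03 and −0.12, so the order of the AKAP8L reads rested mainly on sgRNA 3.

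AKAP3 had both the highest and the lowest sgRNA among those with the same sign in both screens. Reads of sgRNA 3 were 190 and 177.8 in high, 123 and 101.3 in medium, and 72.6 and 144.7 in low. High was above low in each screen, with log2 fold changes of 1.38 and 0.30 (edgeR 0.79, adjusted p = 0.148). Without low of screen 3 this sgRNA was called, at 1.43 with an adjusted p of 0.0368. For sgRNA 4 the reads were 386.1 and 373.3 in high, 507.3 and 481.1 in medium, and 495.5 and 583.1 in low. High was the lowest here, with −0.36 and −0.64 (edgeR −0.50, adjusted p = 0.0534). Within 1 gene, these sgRNAs therefore pointed in opposite directions in both screens. The fourth sgRNA with an unadjusted p under 0.05, named after its values were seen, was sgRNA 1 against AKAP1 (edgeR 0.50, adjusted p = 0.129).

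Low versus medium and high versus medium separate the tails of the labeling distribution. In low versus medium, limma called none of the 14 genes, beside 2.71% of all genes, and 1 had an unadjusted p under 0.05, beside 11.1%. It was AKAP12, at 0.32 ± 0.11 on the log2 scale (SE, n = 2), with a 95% interval of 0.07 to 0.56 and an adjusted p of 0.272. The screens gave 0.41 and 0.22, and the reads of low, given above, exceeded those of medium in both. Leaving out 1 library moved the value between 0.16, without medium of screen 2, and 0.48, without medium of screen 3. No member had an unadjusted p under 0.05 without medium of screen 2 or without low of screen 3. Over its sgRNAs the change was positive in both screens for sgRNA 3 and sgRNA 4, whereas sgRNA 1 and sgRNA 2 were positive in screen 2 and at −0.01 and −0.04 in screen 3. The other 13 members lay between −0.15 and 0.14. The highest of these was AKAP3, into which the nearly absent sgRNA 1 entered with 1.07 in screen 3. No sgRNA against an AKAP gene passed the edgeR test, beside 1.4% of all sgRNAs. An unadjusted p under 0.05 was found for 4 of the 55, beside 8.56%, and DESeq2 called 0.

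In high versus medium, limma again called none of the 14, beside 1.79% of all genes, and none had an unadjusted p under 0.05, beside 10% of all genes. Values ranged from −0.13 to 0.22, the highest being that of AKAP9. AKAP12 was at 0.18 ± 0.10, and between 0.03 and 0.34 with 1 library left out. The median of the 14 was 0.05, and it was 0.12 when centred on the sgRNAs without a target. With that centring 2 of the 14 had an unadjusted limma p under 0.05, and without the screen as a block 1 did. In both settings 0 of the 14 were called, and the share of all genes under that p was not counted. By edgeR, 0 of 55 sgRNAs passed, beside 1.25% of all sgRNAs, with 7 at an unadjusted p under 0.05, beside 8.91%, and 0 called by DESeq2.

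Low plus high minus 2 times medium is the sum of the changes of both outer populations against medium. A gain in 1 outer population alone can also make it positive. No AKAP gene was called by limma, beside 0.0376% of all genes, and AKAP12 alone had an unadjusted p under 0.05 (0.0318), beside 6.86% of all genes. Its value was 0.50 ± 0.19, with 0.68 and 0.32 in the screens and an adjusted p of 0.643. This comparison uses the same libraries as the previous ones, so the value of AKAP12 here is not a separate observation. Without medium of screen 2 it was 0.18.

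The comparison of sorted cells with T0 asks whether knockout cells were gained or lost up to the sort. No AKAP gene passed the limma test at an FDR of 0.05, beside 9.02% of all genes. Of the 14, 11 lay above 0 and 3 below, between −0.27 and 0.14 with a median of 0.08. Relative to the sgRNAs without a target, which themselves had a median of 0.22, all 14 lay below 0, with a median of −0.15, so no direction can be given for these genes apart from the scaling. On that scale 6719 genes and, among the 14, AKAP3 passed the test.

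AKAP3 was also the 1 member with an unadjusted p under 0.05 against T0, beside 20.9% of all genes. Its scaled reads at T0 were 734 and 698, within the range of 664 to 852 of the sorted populations. The log2 fold change was −0.27 ± 0.10, with −0.11 and −0.42 in the screens and an adjusted p of 0.158. The nearly absent sgRNA 1 had 3.1 scaled reads at T0 of screen 3 and contributed −1.76 there, and with only sgRNAs of at least 50 reads AKAP3 was at −0.06. Relative to the sgRNAs without a target it was at −0.49 (adjusted p = 0.00101), and at −0.29 (adjusted p = 0.0152) when the sgRNA with few reads was left out too.

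Of the 55 sgRNAs, 1 passed the edgeR test against T0, beside 7.29% of all sgRNAs, and 7 had an unadjusted p under 0.05, beside 17%. It was sgRNA 1 against AKAP8, the sgRNA with the most reads of all 56. It had 996.2 and 1175.7 scaled reads at T0, 1276.1 and 1335.6 in high, 1418.2 and 1294.9 in medium, and 1229.2 and 1226.4 in low. Each sorted library exceeded the T0 library of its screen. The log2 fold change was 0.26 (edgeR, adjusted p = 0.0498). As a mean of the 2 screens with reads scaled to library totals it was 0.28, beside a median of 0.22 for the sgRNAs without a target. In this test the sorted libraries were left out in turn, and the T0 libraries were always kept. The call was lost without high (adjusted p = 0.0687), medium (0.27) or low (0.0904) of screen 2 and without high (0.0785) or low (0.0684) of screen 3. Another sgRNA against AKAP8, sgRNA 3, had −0.42 (adjusted p = 0.0662) and was called without high of screen 2, so the sgRNAs of this gene had values on both sides of 0.

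Other proteins that anchor PKA, such as ezrin, merlin and pericentrin, gave 21 measured genes. This list and the lists below were also chosen with earlier results of these data known. In high versus low 1 of them was lower and 0 were higher by limma, beside 2.73% and 5.25% of all genes, and their median was −0.01. The gene that fell was NF2, which encodes merlin, a membrane-cytoskeleton linker and tumour suppressor of the Hippo pathway. NF2 had 1312 and 955 scaled reads in high, 1218 and 1138 in medium, and 1614 and 1531 in low. Low was the highest in both screens, and the log2 fold change was −0.49 ± 0.12 (SE, n = 2, adjusted p = 0.025). Its adjusted p was 0.0939 relative to the sgRNAs without a target and 0.11 without the screen as a block. It also missed the threshold without low of screen 2 (−0.46), high of screen 3 (−0.28) or low of screen 3 (−0.53).

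Of the subunits and inhibitors of PKA, the partners that the anchoring proteins hold, 1 of 10 was higher and 3 were lower in high versus low, beside 5.25% and 2.73% of all genes. PRKAR1A, a type I regulatory subunit, had 2302 and 2569 scaled reads in high, 1776 and 1587 in medium, and 1118 and 1017 in low. Its log2 fold change of 1.16 had a 95% interval of 0.90 to 1.42, above the interval of every AKAP gene. PRKACA, a catalytic subunit, was at the other end, with 561 and 642 reads in high, 679 and 731 in medium, and 1765 and 1966 in low. Its value of −1.60 had an interval of −1.84 to −1.37, below the interval of every AKAP gene.

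PRKAR2A, a type II regulatory subunit of the kind that most AKAPs bind, fell by 0.62 on the log2 scale (limma, adjusted p = 0.0323), with 1379 and 1377 reads in high, 1588 and 1766 in medium, and 1960 and 1966 in low. Its interval of −0.96 to −0.27 overlapped those of several AKAP genes, and screen 2 alone gave −0.23. The call was lost relative to the sgRNAs without a target (adjusted p = 0.121), without the screen as a block (0.105), and without low of screen 2 (−0.71), high of screen 3 (−0.33) or low of screen 3 (−0.52). The inhibitor gene PKIG fell by 0.66 (adjusted p = 0.00193), from 1851 and 1883 reads in low to 1129 and 1259 in high, and missed the threshold without high of screen 2 (−0.58, adjusted p = 0.0528). The other 6 of this list, among them the regulatory subunits PRKAR1B (0.06) and PRKAR2B (−0.03), did not pass.

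Proteins with a docking domain like that of the type II regulatory subunit, such as CABYR and the ropporins, which bind AKAP3 and AKAP4 in sperm, gave 5 genes. By limma 0 of these were called in high versus low, beside 7.98% of all genes, and 0 had an unadjusted p under 0.05, beside 17.6%. With 5 genes, few calls would be made at those shares. Their median was 0.02, and their values lay between −0.11 and 0.10.

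Enzymes that AKAP complexes hold gave 20 genes, of which 2 were higher, 1 was lower and 17 did not pass, beside 5.25% higher and 2.73% lower among all genes, with a median of −0.0032. PDE4A, a cAMP phosphodiesterase, had 1552 and 1391 reads in high, 1176 and 1247 in medium, and 1003 and 1069 in low, and rose by 0.52 ± 0.12 (adjusted p = 0.019). PPP1CA, a catalytic subunit of protein phosphatase 1, had 1262 and 1210 in high, 1168 and 1244 in medium, and 971 and 845 in low, and rose by 0.53 ± 0.11 (adjusted p = 0.00813). RHOA, the GTPase that AKAP13 activates, had 611 and 761 in high, 871 and 787 in medium, and 1171 and 1232 in low, and fell by 0.80 (adjusted p = 0.000922). High and low did not overlap for any of these. Leaving out any library of high or low ended the calls of PDE4A (0.39 to 0.65) and PPP1CA (0.41 to 0.66), PDE4A also missed the threshold without the screen as a block (adjusted p = 0.0629), and leaving out high of screen 2 (−0.66), low of screen 2 (−0.76) or low of screen 3 (−0.84) ended that of RHOA. AKAP13 itself, at 0.10 with an interval of −0.14 to 0.34, did not overlap the interval of −1.07 to −0.54 of RHOA.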

How the data were processed

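The authors counted sgRNA reads with MAGeCK and deposited the raw counts of every sgRNA, separately for the 4 sequencing lanes of each library. An aligner and a genome build are not given in the sources used here. A further 4 columns matched no sample and were not used. Lanes were summed. Python 3.11.15 with pandas 2.3.3 prepared the counts.

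For genes, counts were scaled to the mean of the 8 library totals, and log2 was taken after adding a pseudocount of 1 read. Differences within a screen were averaged over the sgRNAs of a gene and tested against 0 with limma 3.58.1 (lmFit and eBayes, R 4.3.3). Benjamini-Hochberg adjustment covered all 18659 entries of the table, 18638 of them genes. For T0, the sorted populations entered with the weights of their gates (0.25, 0.5 for medium, 0.25). Single sgRNAs were tested on the counts with edgeR 4.0.16 (quasi-likelihood test, TMM, filterByExpr, screen as a block). Both tests were tested on simulated data. DESeq2 1.42.0, other scalings, pseudocounts, filters and averages, and leaving out 1 library at a time were alternatives. In the sgRNA test only libraries of the sorted populations were left out, and those of T0 were always kept. Reads were not collapsed by molecular identifiers. The errors given come from the spread between the 2 screens, pooled in part over all genes, and not from the read number.

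Same-numbered libraries were paired because the populations of a screen come from 1 transduced pool. As a check, the correlation of their deviations from the means of the populations was 0.135 (high, medium), 0.101 (high, low) and 0.137 (medium, low).

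All 14 AKAP genes are named in high versus low. In the other comparisons a gene is named with an unadjusted p under 0.05, an sgRNA with an adjusted p under 0.05, and of the rest the highest and lowest sgRNA in high versus low with the same sign in both screens. Other genes are named where they passed in high versus low. Members and lists were chosen with earlier results of these data known. Names and positions come from GENCODE release 44 (GRCh38). The symbols AKAP2, PALM2 and PALM2AKAP2 of the list of other anchoring proteins were not matched in the table. Guide sequences and cut sites were not analysed here.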

Additional observations from a re-analysis of the deposited data

How the results depend on the processing

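Among the sorted populations, no AKAP gene was called in any comparison under any alternative of the gene test. Against T0, centring on the sgRNAs without a target called 1 (AKAP3), and centring with only sgRNAs of at least 50 reads, chosen after seeing the data, called 3 (AKAP1, AKAP3 and AKAP5), and this centring moved the median of all genes from 0.03 to −0.19. It raised the calls against T0 to 6719 genes (7508 with the filter), of which 0.357% were higher in place of 10.3%, and in high versus low it raised the share of calls that were higher from 65.8% to 78.3%.

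Values near 0 changed sign. AKAP3 in high versus low was 0.0012 with a pseudocount of 5, 0.055 with at least 50 reads and 0.14 with that filter and centring. AKAP10 was 0.0014 with DESeq2 size factors and 0.0776 centred, and AKAP6 was 0.0422 centred, both with and without the filter. Leaving out 1 library gave ranges of −0.12 to 0.11 for AKAP10, −0.0669 to 0.12 for AKAP4, −0.20 to 0.12 for AKAP6, −0.0635 to 0.10 for AKAP11 and −0.35 to 0.17 for AKAP3. The other members kept their sign, with ranges of 0.03 to 0.23 for AKAP1, −0.23 to −0.013 for AKAP5, −0.18 to −0.0006 for AKAP7, 0.03 to 0.24 for AKAP8, 0.02 to 0.18 for AKAP8L, 0.14 to 0.23 for AKAP9, −0.20 to −0.06 for AKAP12, 0.06 to 0.14 for AKAP13 and −0.29 to −0.01 for AKAP14.

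Counts over all genes moved by over 1.5 times as follows. Low versus medium, 506 genes, gave 824 with the median over sgRNAs. High versus medium, 334, gave 606 centred, 814 centred with the filter and 673 with the median. Low plus high minus 2 times medium, 7, gave 82 with a pseudocount of 5, 85 with the filter, 130 centred, 229 centred with the filter and 241 with the median. Without the replicate block, low versus medium gave 258 genes and low plus high minus 2 times medium 2, high versus low gave 1064 in place of 1487, and no AKAP gene was called in any comparison.

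For sgRNAs, DESeq2 called 2188 in high versus low in place of 3346, 543 in low versus medium in place of 1040, and 491 in high versus medium in place of 929. Against T0 it called 5440 sgRNAs, 2 of them against AKAP genes (sgRNA 1 against AKAP8 and sgRNA 4 against AKAP10), and 0 were called without the filter on low counts or without the replicate block.

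Leaving out 1 library gave 663 to 783 genes in high versus low, 104 to 147 in low versus medium, 48 to 245 in high versus medium, 0 to 6 in low plus high minus 2 times medium and 942 to 1443 against T0, in fits without the screen block that assume a lone library to vary like the other groups. For sgRNAs it gave 1844 to 3401, 420 to 1030, 443 to 943 and 4658 to 5240, with 0 to 2 against AKAP genes in high versus low and 0 to 1 against T0. The sgRNA ranges come from leaving out libraries of the sorted populations only, so they do not show how far the calls depend on a T0 library. The low reads of sgRNA 1 against AKAP3 and the 2 screens limit what can be detected.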
